A study of Mus musculus with 2 samples.

Results

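The sarcomeric myosin heavy chains are the motor proteins of the thick filament in striated muscle. The 10 mouse genes Myh4, Myh1, Myh2, Myh7, Myh7b, Myh6, Myh3, Myh8, Myh13 and Myh15 were taken by symbol from 55536 annotated genes, and all 10 were found. They were measured by total RNA-seq in whole gastrocnemius, the large calf muscle, of B6CASTF1/J females aged 2 months, the F1 cross of C57BL/6J with CAST/EiJ mice. There was 1 group, untreated as far as the labels say, with 2 libraries of 300 ng RNA each, called animal 1 and animal 2 here by their biological replicate numbers. The labels number the mice differently but give both the same donor record, so if the libraries came from 1 mouse, the spread between them is a spread within that mouse. With 1 group there is no contrast of conditions, and with 1 library per animal a difference between the animals has no replicate check and is given without a p-value.

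Each muscle fibre type is known for its heavy chain, which largely sets how fast the fibre shortens. Myh4 encodes the chain of type IIB fibres, Myh1 that of IIX fibres and Myh2 that of IIA fibres, whereas Myh7 encodes the slow (type I) chain, which is also the beta chain of the heart. Myh6 encodes the cardiac alpha chain, Myh3 and Myh8 the embryonic and neonatal chains that precede the adult ones in development, Myh13 a chain of the extraocular muscles, and Myh7b and Myh15 are more divergent members.

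The genes lie at 4 places in the mm10 genome. Myh3, Myh2, Myh1, Myh4, Myh8 and Myh13 follow each other on the plus strand of chromosome 11, from 67078300 to 67371586, a span of 293 kb. Myh6 and Myh7 are neighbours on the minus strand of chromosome 14, from 54941921 to 54994626. Myh7b lies on chromosome 2, from 155611212 to 155634307, and Myh15 on chromosome 16, from 49057486 to 49199104, both on the plus strand. Each gene has full-length transcripts of 1 coding length, between 5775 nt for Myh15 and 5826 nt for Myh1 and Myh2.

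Aligned coding sequences placed Myh7 and Myh6 closest together, with 91.6% of aligned bases identical. Myh1 was 91.0% identical to Myh2 and 90.1% to Myh4, while Myh4 and Myh7 were 77.3% identical. Identity bears on the measurement, because a read from a stretch that 2 genes share can be assigned to either. Of all stretches of 100 bases in the annotated transcripts, Myh7 and Myh6 shared 695, which is 7.71% of those of Myh7 and 10.04% of those of Myh6. Myh1 and Myh2 shared 454, which is 7.21% and 6.45% of theirs. Myh7b and Myh15 shared none with any gene, and no member shared one with a gene outside the family. Stretches were compared in the transcribed direction only, so overlaps with genes on the opposite strand, such as Myhas described below, were not counted.

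**Figure D1:**
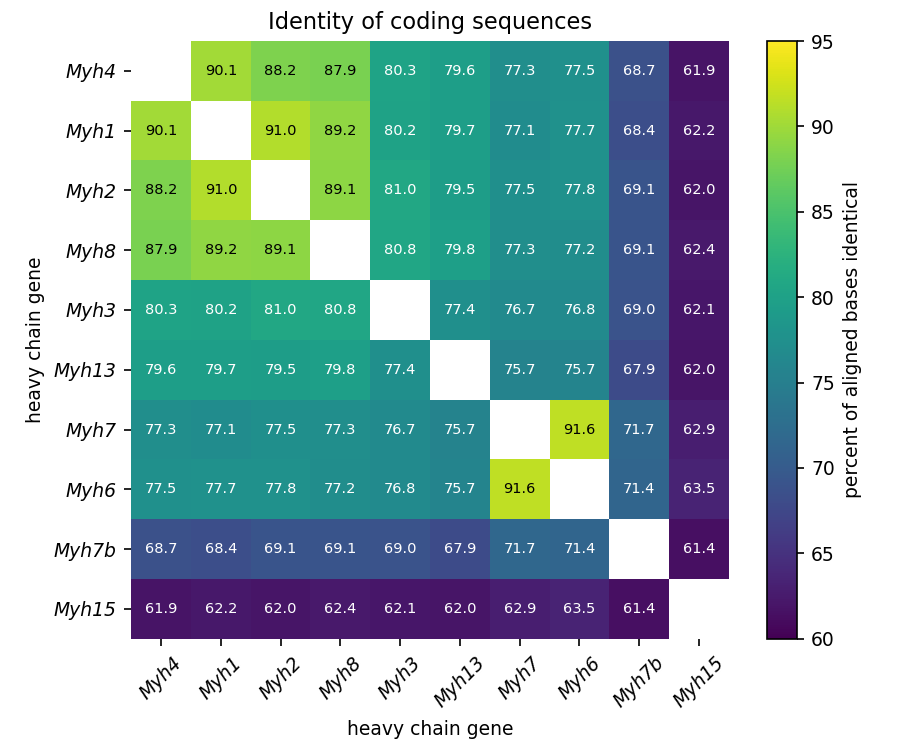
Percent of aligned bases that are identical between the coding sequences of each pair of the 10 genes, from the full-length GENCODE transcripts. The Myh7 and Myh6 pair (91.6%) and the block of Myh4, Myh1, Myh2 and Myh8 stand above the rest, and Myh15 is the most distant.

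The sequence just before the start of each gene is shown for the 3 adult fast genes and for Myh7, because the fast genes were near the same level in both animals and Myh7 was not. The windows are the 250 bases before the RefSeq start (GRCm38.p6), printed along the gene's strand and stopped at the GENCODE start, which shortens the Myh1 window to 200 bases. Capitals mark a run of 20 bases that was identical in Myh2, Myh1 and Myh4. No capitals are set in Myh7.
Myh2 promoter, chr11:67170777-67171026, plus strand: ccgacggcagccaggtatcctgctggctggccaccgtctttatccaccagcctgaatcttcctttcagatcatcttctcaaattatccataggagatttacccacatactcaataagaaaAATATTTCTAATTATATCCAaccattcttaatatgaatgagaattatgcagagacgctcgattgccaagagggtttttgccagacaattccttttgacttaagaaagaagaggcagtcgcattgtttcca
Myh1 promoter, chr11:67199852-67200051, plus strand: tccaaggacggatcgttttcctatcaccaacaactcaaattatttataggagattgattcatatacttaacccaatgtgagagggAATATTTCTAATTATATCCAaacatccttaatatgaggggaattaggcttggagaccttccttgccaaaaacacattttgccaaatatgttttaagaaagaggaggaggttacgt
Myh4 promoter, chr11:67237562-67237811, plus strand: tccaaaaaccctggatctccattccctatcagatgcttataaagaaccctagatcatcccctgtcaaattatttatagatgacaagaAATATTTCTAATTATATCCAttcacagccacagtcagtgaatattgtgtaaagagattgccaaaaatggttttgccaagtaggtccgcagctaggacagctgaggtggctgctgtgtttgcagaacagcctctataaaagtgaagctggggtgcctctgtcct
Myh7 promoter, chr14:54994627-54994876, minus strand: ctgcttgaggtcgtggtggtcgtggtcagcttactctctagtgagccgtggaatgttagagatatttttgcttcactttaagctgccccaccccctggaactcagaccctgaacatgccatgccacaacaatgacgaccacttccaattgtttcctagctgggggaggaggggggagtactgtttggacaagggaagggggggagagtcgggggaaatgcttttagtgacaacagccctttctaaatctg
The run began 130 bases before the RefSeq start in Myh2, 165 in Myh1 and 163 in Myh4. It was picked as the longest run common to these 3 windows, so its presence in them was fixed by the choice. It was present in 3 of 32851 windows of the same length on either strand (0.00913%), and those were these genes. How often other runs of 20 bases recur was not tested. Myh8 held the shared run with 2 substitutions, T5C and A20G, counted from 1 at the 5′ end of the run. Motifs were searched in the full 250 bases before each RefSeq start, without the stop at the GENCODE start, in the family as in all windows. A match to the MEF2 motif was found on either strand in the windows of Myh1, Myh4 and Myh8 and in 2.92% of all windows. The MCAT motif CATTCC was found on either strand in Myh1, Myh4, Myh6 and Myh7, and in 12.6% of all windows. TATAAA on the gene strand was found in Myh1, Myh3 and Myh4, and in 7.59% of all windows. In Myh1 the MCAT and TATAAA matches began 16 and 32 bases before the RefSeq start, beyond the end of the sequence printed above and downstream of the GENCODE start. The Myh6 window lies wholly downstream of its GENCODE start. These matches describe letters in the window only, and the data hold no measurement of binding.

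The adult fast chains made up nearly all heavy chain RNA. Levels between genes are compared here in TPM, a unit that corrects for transcript length and sums to the same total in every library. The level of Myh4 was 5755 TPM in animal 1 against 5252 TPM in animal 2 (mean 5503 ± 356 SD, n = 2). Myh1 was at 2037 and 2108 TPM (2072 ± 50.6), and Myh2 at 1390.4 and 1331 TPM (1361 ± 42.1). Both animals gave like levels for each of these genes, and the values of any 1 gene did not reach those of the next. Among protein-coding genes ordered by mean TPM, Myh4 was the 15th, Myh1 the 30th and Myh2 the 35th.

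Myh7 and its relatives were low in animal 1 and several times higher in animal 2. Myh7 stood at 92.6 TPM in animal 1 against 596 TPM in animal 2 (344 ± 356). Myh6 was at 18.0 and 125 TPM (71.4 ± 75.5), and Myh7b at 0.71 and 3.53 TPM (2.12 ± 1.99). Behind these levels stood 14636 and 97539 reads for Myh7, 1058 and 6831 for Myh6, and 115 and 553 for Myh7b.

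The developmental chains were below the adult fast chains and, by these TPM, below Myh7. Their level was nearly equal in both animals. Myh8 was at 65.2 and 61.5 TPM (63.4 ± 2.64), and Myh3 at 5.41 and 5.50 TPM (5.46 ± 0.0636). In animal 1 the order of Myh8 and Myh7 was not fixed. Myh8 was the higher in a second deposited transcript table (90.0 against 87.3 TPM). It was also the higher on full-length coding transcripts alone (65.1 against 62.4 TPM). Myh13 was at 1.63 and 1.32 TPM (1.48 ± 0.219). Myh15 is listed at 0 TPM in both animals, from 1 read and 0 reads, and 3 reads would have given 0.0128 and 0.0120 TPM.

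In the order of levels, Myh4 stood above Myh1, Myh1 above Myh2 and Myh2 above Myh7 in both animals without overlap. Myh7 and Myh6 overlapped across animals, though within animals 1 and 2 Myh7 was 5.12-fold and 4.77-fold above Myh6. Myh6 and Myh8, and Myh7b and Myh13, changed order between the animals. For Myh6 and Myh8 this was not so in the second table. There Myh8 was above Myh6 in both animals, at 90.0 against 10.9 TPM and 82.4 against 63.6 TPM. Myh7, at 87.3 TPM or more, did not overlap with Myh6 there. On full-length transcripts of the first table Myh8 was also above Myh6, at 65.1 against 3.68 TPM and 61.4 against 21.1 TPM. In all, 8 of the 10 genes reached 1 TPM in both animals, where 20.1% of all annotated genes and 46.5% of protein-coding genes did. Myh7b, at 0.71 TPM in animal 1, and Myh15 were the exceptions.

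**Figure D2:**
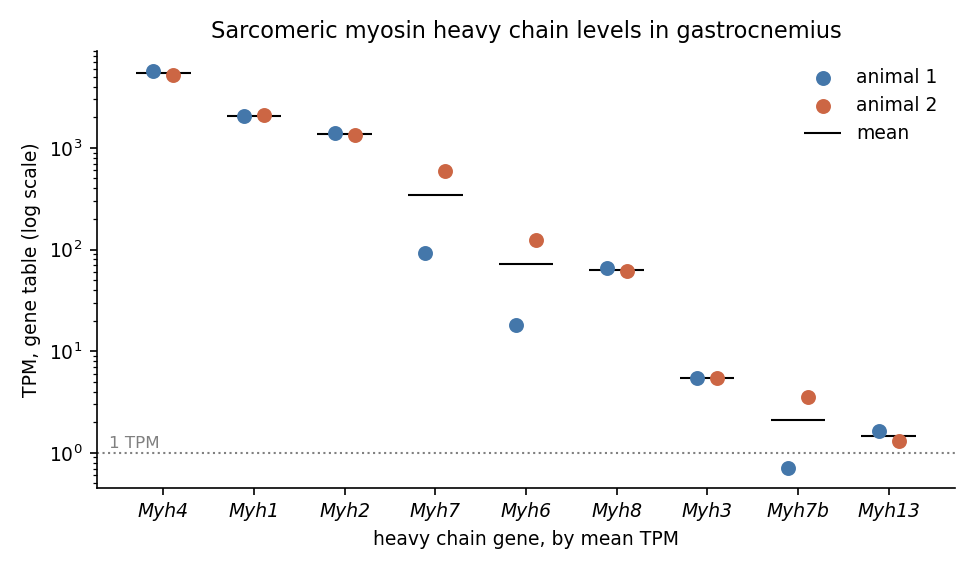
TPM of each heavy chain gene in animal 1 and animal 2 on a log axis, ordered by mean, with the mean as a bar and 1 TPM as a dotted line. Myh15, at 0 TPM in both, cannot be drawn on this axis. Myh7, Myh6 and Myh7b are set apart by the gap between their points.

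As a share of the summed TPM of the 10 genes, Myh4 took 61.4% in animal 1 against 55.4% in animal 2 (58.4 ± 4.29%). The share of Myh1 was 21.7% and 22.2%, and that of Myh2 was 14.8% and 14.03%. Myh7 took 0.988% and 6.28% (3.64 ± 3.74%). The family sum was nearly the same in both animals, 9365 and 9483 TPM, and took 4.57% and 4.51% of all reads assigned to genes. Within that sum the adult fast chains went from 98.0% in animal 1 to 91.6% in animal 2, and Myh7, Myh6 and Myh7b together from 1.19% to 7.64%. In the second deposited transcript table these 3 genes held 0.704% and 4.29%. With all transcripts of the first table, Myh4 was 62.1-fold above Myh7 in animal 1 and 8.81-fold in animal 2. These folds are on the TPM scale with a pseudocount of 0.1. They were not computed for the second table or for full-length transcripts, where Myh7 took a smaller share.

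That second table, estimated directly from the reads rather than from an alignment, gave other shares. There the share of Myh4 was 53.4% and 48.8%, and that of Myh2 was 12.3% and 11.8%. The share of Myh1 was larger, at 32.8% and 34.5%, and Myh7 took 0.616% and 3.79%. A large part of the TPM of Myh1 in that table, 45.9% on average, was assigned to Myh1-204, at 2102 and 2243 TPM. This transcript has 631 nt and 3 exons with an incomplete end. Counted in reads, it held 19246 of 465907 for Myh1 in animal 1 and 21661 of 506808 in animal 2. The first table gave the same transcript 90.7 and 112 TPM. When only transcripts with a full-length coding sequence (5000 nt or more) were summed, an alternative chosen after seeing the data, the tables gave nearly the same shares for Myh4, Myh1, Myh2 and Myh7. Myh4 then held 62.5% and 58.1% in the first table and 63.0% and 58.4% in the second. Myh1 held 21.1% and 22.1% in the first, and 21.2% and 22.1% in the second. Myh2 held 14.9% and 14.5% in the first, and 14.4% and 13.98% in the second. Myh7 held 0.678% and 4.31% in the first, and 0.715% and 4.52% in the second. The tables still differed for low genes. Myh7b held 0.00521% and 0.0238% in the first against 0.0115% and 0.0336% in the second, and in animal 1 Myh3 held 0.0587% against 0.0836% and Myh13 0.0176% against 0.0275%.

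**Figure D3:**
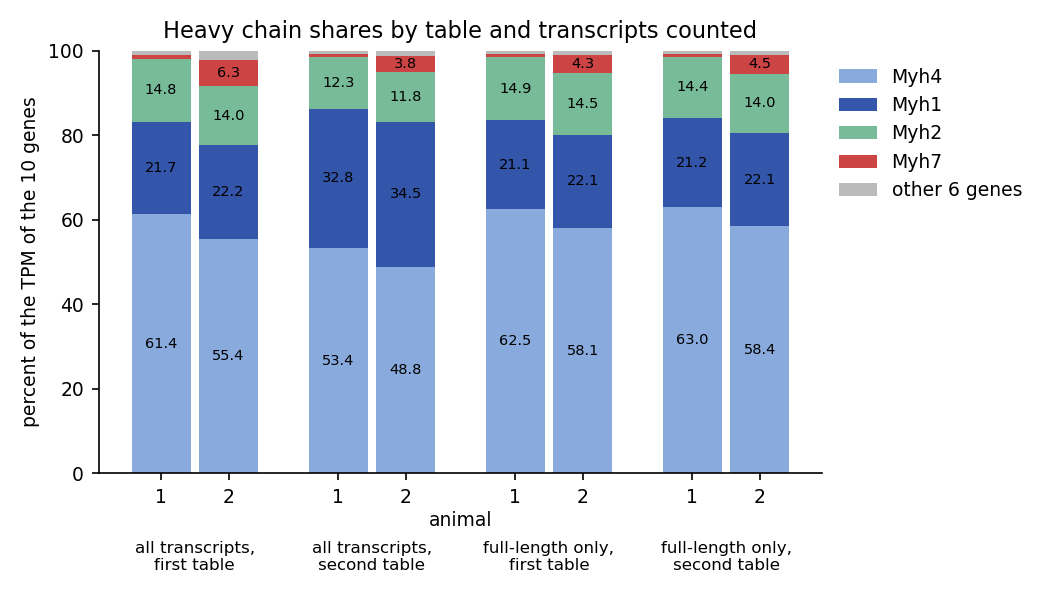
Percent of the TPM of the 10 genes held by Myh4, Myh1, Myh2, Myh7 and the other 6 genes, for each animal, in both tables, with all transcripts or full-length coding transcripts only. The Myh1 share is 32.8% and 34.5% in the second table with all transcripts, and between 21.1% and 22.2% in the other bars.

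The tables also divided genes among their transcripts differently. For Myh2, transcript Myh2-201 held 89.3% in the first table and 6.90% in the second, where Myh2-203 held 91.9%. Both encode a chain of the same coding length. For Myh1, Myh1-203 held 55.7% in the first table and 0.507% in the second, Myh1-202 held 32.9% and 16.5%, and Myh1-201 held 6.58% and 37.1%. Myh4-201 held all of Myh4 in both tables, and Myh8-201 held 99.8% of Myh8 in the first and 82.6% in the second, where the retained-intron transcript Myh8-203 held 17.2%.

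The slow genes had part of their TPM on short transcripts. Myh7-201 held 66.1% of Myh7 in the first table and 70.4% in the second. The short Myh7-206 and Myh7-207 held 15.98% and 16.8% in the first table and 0 in the second, where full-length Myh7-204 held 28.4%. For Myh6, 81.3% of the first table's TPM was on Myh6-207, a transcript of 542 nt of which 31.4% of the 100-base stretches also occur in Myh7. The second table gave it 2.36% and put 52.4% on the retained-intron transcript Myh6-206. Full-length Myh6-205 held 18.5% in the first table and 41.9% in the second. Full-length Myh6 transcripts came to 3.68 TPM in animal 1 and 21.1 TPM in animal 2 in the first table. The level of Myh6 is therefore uncertain. As a ratio of TPM, its difference between the animals was 5.73-fold on full-length transcripts alone, against 6.93-fold on all its transcripts.

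The split also differed between tables or animals for the remaining genes. Myh3-201 held 67.1% of Myh3 in animal 1 and 40.5% in animal 2 in the first table, and 13.0% on average in the second, where Myh3-202 held 71.0%. The third transcript, Myh3-203, held 0.370% in animal 1 and 30.5% in animal 2 in the first table, and 25.0% and 7.03% in the second. Myh13-203 held 50.9% of Myh13 in animal 1 and 99.2% in animal 2 in the first table, and 0.00320% and 31.5% in the second. Myh13-201 held 48.5% and 0.758% in the first table, and 60.4% and 51.5% in the second. Myh13-202 held 0 in the first table, and 39.5% and 17.0% in the second. As means in the first and second tables, Myh7b-201, the full-length transcript, held 64.3% and 86.2%, and the short Myh7b-203 held 27.4% and 13.8%. Myh7b-202 held 8.45% in the first table, from 2.49 reads in animal 1 and 0 in animal 2, and 0 in the second. Which transcript led was not the same in both tables for Myh3 and Myh13.

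**Figure D4:**
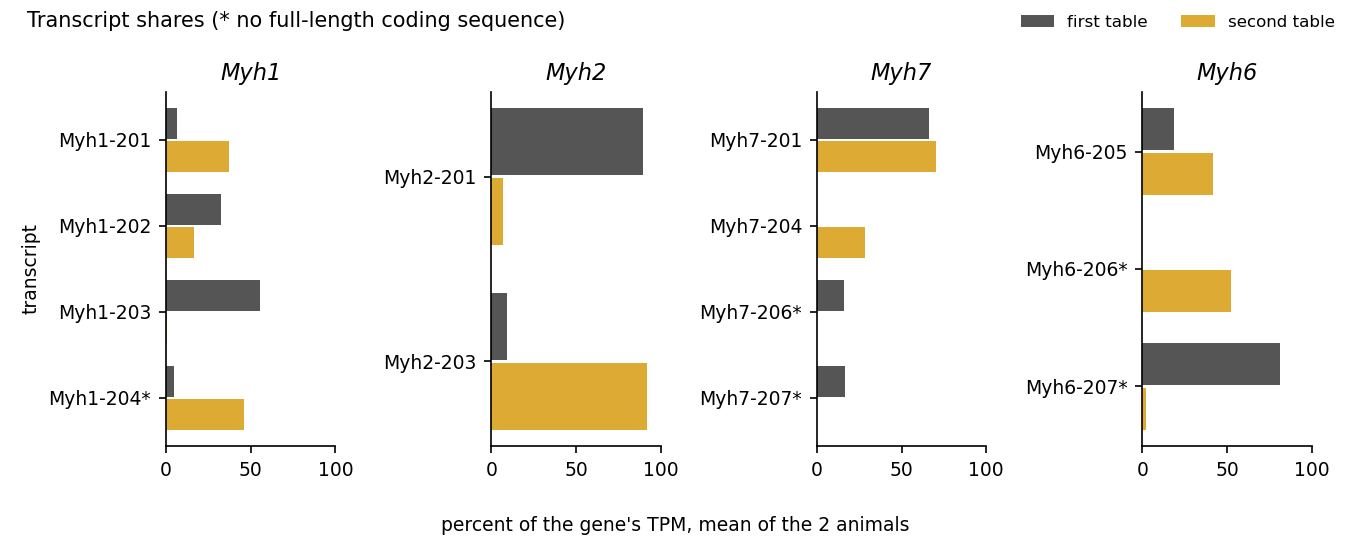
Mean percent of each gene's TPM on its main transcripts in the first and second tables (n = 2 animals), for Myh1, Myh2, Myh7 and Myh6, with an asterisk for transcripts that lack a full-length coding sequence. The leading transcript differs between the tables for Myh1, Myh2 and Myh6 and is Myh7-201 in both for Myh7.

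Between the animals, 3 of the 9 heavy chain genes with a mean of 100 reads or more were 2-fold or more apart, where 3.03% of 10872 genes were. All 3 were higher in animal 2, where 0.782% of genes were, and 2.24% were higher in animal 1. Scaled to ERCC spike-ins, RNA standards added to each library, 137 genes were higher in animal 2 and 173 in animal 1, against 85 and 244 here. Log2 ratios are of reads scaled by TMM, with a 95% exact binomial interval that covers counting error only. Myh7 had a log2 ratio of 2.75 (2.73 to 2.78), Myh6 of 2.71 (2.61 to 2.80) and Myh7b of 2.28 (1.99 to 2.58). Myh7 was thus 6.73-fold, Myh6 6.52-fold and Myh7b 4.84-fold higher in animal 2. In the second table Myh7b had a log2 ratio of 1.64.

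The other 6 genes lay close to 0. Myh1 had a log2 ratio of 0.14, Myh3 of 0.13, Myh2 of 0.04, Myh8 of 0.02, Myh4 of -0.03 and Myh13 of -0.18. The median of all tested genes was 0.01, and 0.22 with spike-in scaling. The sign for Myh2 and Myh8 turned with library size scaling (-0.06 and -0.08), and that for Myh4 and Myh13 turned with spike-in scaling (0.18 and 0.03).

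The genes outside the family with ratios nearest to that of Myh7, over 2 libraries and among genes with a mean of 1000 reads or more, were Tnni1 (2.67), Tnnc1 (2.65), Tnnt1 (2.54), Actc1 (2.51) and Atp2a2 (2.44). The troponin genes Tnni1, Tnnc1 and Tnnt1 encode the slow thin filament regulators, and Atp2a2 the calcium pump of slow and cardiac muscle. Tnni1 stood at 36.6 TPM in animal 1 against 216 TPM in animal 2.

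Of 8 slow fibre partners, 7 were 2-fold or more higher in animal 2. The median log2 ratio of the 8 was 2.41. Tpm3, slow tropomyosin, was at 74.4 and 394 TPM, and Myoz2 at 213 and 268 TPM was the one that was not. Of 8 fast fibre partners none was 2-fold apart, with a median of -0.01. Tnnt3, fast troponin T, was at 10303 and 10361 TPM, and Atp2a1, the fast calcium pump, at 8749 and 7716 TPM. These lists were chosen with such differences already known and are no independent evidence of a direction.

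**Figure D5:**
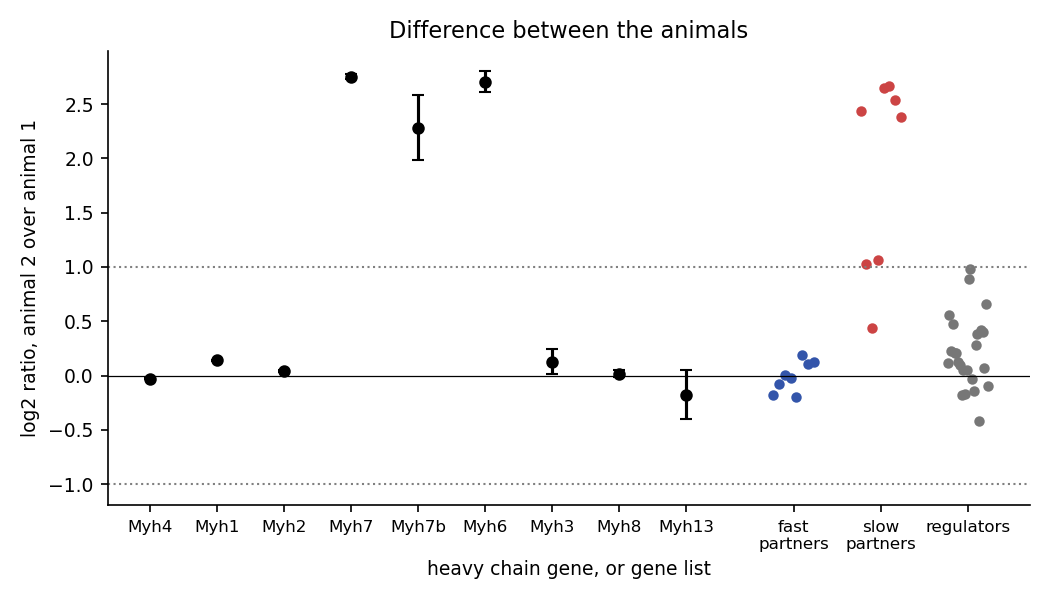
Log2 ratio of scaled reads, animal 2 over animal 1, for the 9 tested heavy chain genes with 95% counting intervals, and for each gene of 3 lists without intervals. Dotted lines mark 2-fold. Myh7, Myh7b, Myh6 and 7 of 8 slow partners lie above the upper line, and no fast partner or regulator lies outside the lines.

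The light chains, which bind the neck of the heavy chain, were looked at by type. The fast chains Mylpf (9598 and 8865 TPM) and Myl1 (5965 and 5269 TPM) were less than 2-fold apart. Myl2 was at 370 and 920 TPM (log2 ratio 1.42), and Myl3 at 131 and 642 TPM (2.39), both chains of slow and ventricular muscle. Of 9 light chain genes tested, these 2 were higher in animal 2 and Myl9, a smooth muscle chain, was higher in animal 1 (log2 ratio -1.13), the last named after its values were seen.

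Of 8 thick filament partners tested, 1 was 2-fold apart. That was Mybph, myosin binding protein H, at 18.6 and 68.9 TPM (log2 ratio 2.00), singled out after its values were seen. Titin (Ttn) was at 2719 and 2489 TPM, and Mybpc2, the fast binding protein C, at 1040.1 and 954 TPM. None of 9 folding and turnover genes was 2-fold apart, among them the myosin chaperone Unc45b at 55.9 and 60.4 TPM and the ubiquitin ligase Trim63 at 129 and 116 TPM. The highest of these genes on average were Trim54, at 125 and 128 TPM, and the methyltransferase Smyd1, at 118 and 133 TPM. None of 24 regulators of heavy chain genes was either, where 3.03% of all tested genes were. Mef2c was the highest regulator, at 174 and 178 TPM. Prox1 (log2 ratio 0.98) and Ppargc1a (0.89), singled out after their values were seen, lay just under the cut. Spike-in scaling shifts every log2 ratio by the same amount, and raised the median of all tested genes from 0.01 to 0.22. That shift would carry Prox1 and Ppargc1a past the cut, so the absence of regulators 2-fold apart does not hold with spike-in scaling. Calls near the cut in other lists would change too, such as those of Myl9, Myh11 and the satellite cell marker Myog. Of the 4 non-muscle and smooth muscle heavy chains, Myh9 was at 29.9 and 20.6 TPM, and 1, Myh11 of smooth muscle, was 2-fold apart, at 16.9 and 7.19 TPM.

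Other cell types also differed between the animals. All 6 adipocyte markers were 2-fold or more higher in animal 1, with a summed level of 579 TPM against 35.1 TPM, and so were all 5 tested markers of Schwann cells and myelin (245 against 33.2 TPM) and 5 of 6 smooth muscle markers (180 against 89.0 TPM). Of 6 tenocyte markers, 2 were higher in animal 2 (120.1 against 215 TPM). Their part in the heavy chain differences was not tested, and in whole muscle fewer cells of a type and less RNA per cell cannot be told apart. None of the 8 cardiac markers reached the read minimum, with sums of 3.64 and 4.41 TPM and the atrial light chain Myl7 at 0 in both. None of the 3 satellite cell and 4 denervation markers that reached the read minimum was 2-fold apart. Of the 5 muscle spindle markers only Etv5 reached it, at 3.69 and 2.70 TPM. Ngfr, another of them, had 140 reads in animal 1 and 15 in animal 2, which is under the minimum on average.

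The non-coding genes of the heavy chain loci, where measured, stood at 23.4 TPM or less in the first table. Myhas, annotated antisense to Myh1, was at 17.3 and 10.6 TPM (log2 ratio -0.59). It shares 515 of its 2027 exonic bases with Myh1, and since the strand setting of the counting is not given, reads of the pair cannot be told apart there. The lincRNA 2310065F04Rik, between Myh3 and Myh2, was at 23.4 and 17.7 TPM (-0.25), and 9430073C21Rik, antisense to Myh2, at 0.42 and 0.72 TPM. Mhrt, antisense to Myh7, had 1 read in each animal and Gm31251 had 0 and 4 reads. Gm49130, Gm29015 and Gm26476 had 0 reads in the first table. Mir6923, inside Myh3, is 72 nt long, has an effective length of 0 in that table and was not measured.

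Myh6, Myh7 and Myh7b carry microRNA genes in their introns, known to take part in fibre type control. They are shown because these host genes are the ones that differed. Capitals mark the seed, bases 2 to 8, and the sequences are from RefSeq.
mmu-miR-208a-3p, from Mir208a in Myh6: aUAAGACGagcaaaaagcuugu
mmu-miR-208b-3p, from Mir208b in Myh7: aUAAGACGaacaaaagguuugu
mmu-miR-499-5p, from Mir499 in Myh7b: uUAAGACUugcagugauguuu
The seed of miR-208a-3p and miR-208b-3p is the same, UAAGACG, and that of miR-499-5p is UAAGACU. Counted from the 5′ end, miR-208b-3p differs from miR-208a-3p by G10A, A16G and C18U. Their precursors, of 83, 77 and 79 nt, have an effective length of 0 in the first table and are listed at 0 reads, so these libraries give no measurement of them.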

How the data were processed

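Total RNA was measured in 2 gastrocnemius libraries with 45014831 and 47771308 expected counts on annotated genes. Per the deposited file lists, the authors used mm10 and GENCODE M21. Aligner, counter, versions and strand setting, however, were not given in the sources used here. The first tables, made by the authors from a transcriptome alignment, hold expected counts, TPM, a posterior SD (a score in reads) and, for transcripts, percent of the gene. The authors' second table holds estimated counts and TPM per transcript. Effective length is length less 99 nt in the first tables and less 338.15 and 344.16 nt in the second. CAST alleles were quantified against the C57BL/6J reference, and the effect of this was not tested.

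Counts were rounded and scaled by TMM (edgeR 4.0.16, R 4.3.3) on the 15709 genes whose counts averaged 10 or more. TMM on all genes was run first and gave 323 genes 2-fold apart. The filter was adopted afterwards because it gives 329, the number in an earlier description of these data, and TMM on all genes is kept as an alternative. Ratios used a prior count of 0.5, a mean count of 100 or more and a fold of 2, on which the script was tested on simulated data. DESeq2 1.42.0 supplied other size factors, MAFFT 7.526 the coding alignments. ERCC spike-ins took 216553 and 185528 reads. Intervals are exact (Clopper-Pearson) at 95%. Genes named are all members, their transcripts at 5% or more, non-coding genes of their loci, the 5 genes nearest Myh7 and examples from the 4 genes of highest TPM in each of 16 lists (124 of 124 entries matched). Myl9, Mybph, Myl7, Prox1 and Ppargc1a fall outside this rule. Members and lists were chosen with earlier results of these data known.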

Additional observations from a re-analysis of the deposited data

How the results depend on the processing

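Of 149 values recomputed under alternatives, 39 moved, among them 13 of 67 heavy chain shares and 18 of 54 log2 ratios. A share moved when it differed from the mean by the SD or more, a ratio when it left its counting interval. With n = 2, a share with an animal left out cannot move by this rule. Only Myh7, Myh6 and Myh7b had a called direction, and none of theirs changed. The Myh4 share was 51.1% on average in the second table, against 58.4%. It lay between 55.4% and 61.4% with either animal left out, and the Myh7 share between 0.988% and 6.28%. The mean Myh7 share was 3.64%, against 2.21% in the second table and 2.62% as a share of reads. On full-length transcripts it was 2.49% in the first table and 2.62% in the second. By the rule these did not move, because the SD of the Myh7 share, 3.74%, is larger than its mean. The Myh7 log2 ratio was 2.65 with library size scaling and 2.96 with spike-in scaling, against 2.75, and 2.76 with TMM on all genes. The count of 3 heavy chain genes 2-fold apart was 3 in each alternative. Detection gave 9 genes at 0.1 TPM, 6 at 10 TPM and 9 in the second table, against 8. Over all genes, 329 were 2-fold apart, 323 with TMM on all genes, 1207 at a mean count of 10 or more and 2289 at 3 or more, which stood for no filter because Myh15 lies under 3 reads. Of 9 leading transcripts, 8 moved in the second table beyond the spread between animals. The full-length alternative and TMM on all genes were chosen after seeing the data. Ratios have no value with an animal left out. No paired analysis was possible because there is 1 group. Depth limits Myh7b, Myh13 and Myh15, and the number of animals limits all shares.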
